A study of Mus musculus with 6 samples.

Results

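The neuronal pentraxins Nptx1 and Nptx2 and the membrane-bound neuronal pentraxin receptor Nptxr were examined in cortex RNA of newborn mice. They are 3 of the 23621 genes in the deposited table, were taken by gene name, and all 3 passed the filter on low counts. The family was selected on measured values, because the mutant against wild-type fit had called Nptx1, so that contrast is given for all 3 members as a description, without a test. The study compared 3 libraries of Tle4-/- null mutants with 3 libraries of their wild-type littermates, all at postnatal day 0 and all on a mixed background of C57BL/6J, 129S6 and CD1. Tle4 encodes a Groucho-family transcriptional co-repressor of deep-layer cortical neurons. The labels do not say how the null allele was made or whether a library came from a single animal, so the spread between samples may be technical in part.

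Pentraxins are proteins that share a carboxy-terminal, calcium-binding pentraxin domain, named after the blood proteins that assemble into rings. Nptx1 and Nptx2 are secreted by neurons, and Nptx2 is also known as Narp, the product of an activity-induced gene. Nptxr holds mixed complexes of the family at the membrane. These complexes bind the extracellular part of AMPA-type glutamate receptors and gather them at excitatory synapses.

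Nptx1 (ENSMUSG00000025582) lies on the minus strand of chromosome 11 from 119538719 to 119547753, Nptx2 (ENSMUSG00000059991) on the plus strand of chromosome 5 from 144545902 to 144557478, and Nptxr (ENSMUSG00000022421) on the minus strand of chromosome 15 from 79786352 to 79804766, all on GRCm38. None is on chromosome 19, where Tle4 lies. Each has a coding transcript of 5 exons in GENCODE M21. The coding stretch below, of 90 bases, is the one in which the most bases are shared by all 3 members. Only stretches aligned without a gap and within a single exon of each gene were compared. The chosen stretch shows how near the genes come to each other, which matters since reads are given to one or another by sequence. Capitals mark the 60 bases that are the same in all 3.
Nptx1, chr11:119544592-119544681, minus strand: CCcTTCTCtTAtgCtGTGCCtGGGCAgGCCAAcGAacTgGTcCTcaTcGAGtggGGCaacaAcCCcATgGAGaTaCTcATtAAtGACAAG
Nptx2, chr5:144553555-144553644, plus strand: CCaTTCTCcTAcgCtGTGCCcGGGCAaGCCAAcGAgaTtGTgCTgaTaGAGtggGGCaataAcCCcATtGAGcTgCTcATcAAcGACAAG
Nptxr, chr15:79792603-79792692, minus strand: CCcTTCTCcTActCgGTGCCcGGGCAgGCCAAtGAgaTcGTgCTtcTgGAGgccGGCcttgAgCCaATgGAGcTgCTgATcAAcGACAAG

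Over the aligned coding bases, Nptx1 and Nptx2 were identical at 69.1%, Nptx2 and Nptxr at 66.7%, and Nptx1 and Nptxr at 66.0%. The longest exact run was 16 bases between Nptx1 and Nptx2, 19 between Nptx2 and Nptxr, and 13 between Nptx1 and Nptxr. No coding stretch longer than 19 bases is therefore the same in 2 of the members.

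Libraries held 18617408 to 21632607 counts. Tle4 itself had 69.3, 86.8 and 86.8 CPM (a count scaled to library depth, here with TMM factors) in the mutants, against 198, 142 and 166 CPM in the wild types, so the genotypes did not overlap and transcript remained in the mutants. Xist, the transcript of the inactive X chromosome, had 66194 to 79080 counts in the mutants and 11 to 37 in the wild types, so an effect of sex cannot be told apart from that of genotype. Ddx3y, a Y-linked gene, had 1, 0 and 2 counts in mutant replicates 1 to 3, against 1463, 1891 and 2 counts in wild-type replicates 1 to 3. The library labelled wild-type replicate 3 was thus low for both genes. Markers of cortical excitatory neurons were present in every library, with summed levels of 1768 to 2339 CPM in the mutants and 2015 to 2310 CPM in the wild types. Meningeal markers summed to 9.88 CPM in wild-type replicate 1 and to 160 to 449 CPM in the other libraries, and choroid plexus markers to 97.5 CPM in mutant replicate 3 and to 0.748 to 2.29 CPM elsewhere.

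Nptx1, the secreted member that started the choice of this family, was lower in the mutant cortex in every library. It had 294, 276 and 267 counts in mutant replicates 1 to 3, against 628, 610 and 608 counts in wild-type replicates 1 to 3. On the CPM scale these were 13.7, 14.4 and 13.9 in the mutants and 32.0, 27.4 and 32.7 in the wild types. The 3 mutants lay within 1 CPM of each other and below all wild types, and the genotypes did not overlap. The mean was 14.0 ± 0.360 CPM in the mutants and 30.7 ± 2.88 CPM in the wild types (SD, n = 3 each). The log2 fold change, mutant over wild type, was -1.13 with a standard error (SE) of 0.14, or 0.458 of the wild-type level.

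**Figure D1:**
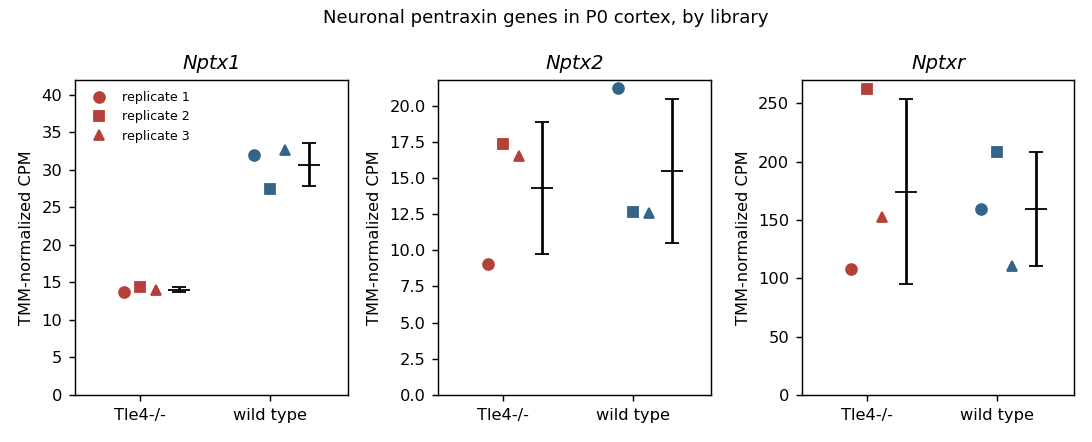
TMM-normalized CPM (vertical axes, each starting at 0) of Nptx1, Nptx2 and Nptxr in the 3 Tle4-/- libraries (red, left) and the 3 wild-type libraries (blue, right), with symbols for replicate numbers and black bars for mean ± SD. The genotypes are apart for Nptx1, at 13.7 to 14.4 CPM in the mutants and 27.4 to 32.7 CPM in the wild types, and overlap for Nptx2 and Nptxr.

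The value that led to the choice was the edgeR adjusted p of Nptx1, 0.0168, ranked 12 of 16274 genes tested. Of the 3 members 1 was called, lower in the mutant, where 0.0614% of all genes tested were called lower and 0.111% in either direction. Genotypes that did not overlap, with the mutant lower, were found for 3.75% of genes tested. The call depended on the libraries: the edgeR adjusted p was 0.0322 without wild-type replicate 2 and 0.0701 to 0.130 without any other library. Without each library in turn, the log2 fold change stayed between -1.20 and -1.08. The authors' deposited table gives Nptx1 an adjusted p of 8.88e-05, and Nptx2 and Nptxr an adjusted p of 1.

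Other genes moved with Nptx1 in these libraries, among marker lists chosen with earlier results of these data known. Markers of corticothalamic and subplate neurons, the deep-layer cells that include those in which Tle4 is found, summed to 191 to 206 CPM in the mutants and to 324 to 422 CPM in the wild types. All 8 of 8 were lower in the mutant with no overlap between the genotypes, and 1 of the 8, the subplate gene Ctgf, passed the adjusted threshold. Over all genes tested, 3.75% were lower in the mutant with no overlap, and 0.111% passed the adjusted threshold in either direction. By direction alone, 8352 of the 16274 genes tested were lower in the mutant and 7922 higher. Striatal projection neuron markers, which mark tissue next to the cortex, summed to 144 to 193 CPM in the mutants and to 193 to 285 CPM in the wild types. Of these, 10 of 11 were lower, 4 of the 11 lower with no overlap between the genotypes, and 1 of the 11 was past the adjusted threshold. Interneuron markers summed to 479 to 554 CPM in the mutants and to 549 to 592 CPM in the wild types, with 8 of 9 lower and 3 of the 9 not overlapping between the genotypes. Other lists were higher in the mutants with no overlap of the sums. Pan-neuronal markers summed to 5692 to 5935 CPM in the mutants and to 4818 to 5639 CPM in the wild types, with 5 of 6 higher. Markers of the oligodendrocyte lineage summed to 285 to 316 CPM in the mutants and to 247 to 278 CPM in the wild types, with 5 of 5 higher. None of the markers in these lists was at 0 in all libraries. Their part in the Nptx1 difference was not tested. In bulk tissue, fewer cells of a type and less RNA per cell cannot be told apart.

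Nptx2, the activity-induced secreted member, had 194, 332 and 316 counts in mutant replicates 1 to 3, against 416, 281 and 234 counts in wild-type replicates 1 to 3. Its levels were 9.07, 17.4 and 16.5 CPM in the mutants and 21.2, 12.6 and 12.6 CPM in the wild types. The genotypes overlapped, and the lowest and the highest library were mutant replicate 1 and wild-type replicate 1. The mean was 14.3 ± 4.56 CPM in the mutants and 15.5 ± 4.96 CPM in the wild types (SD, n = 3 each). Its log2 fold change of -0.11 had an SE of 0.30, and the sign turned with the libraries, at 0.14 without mutant replicate 1 and 0.18 without wild-type replicate 1.

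Nptxr, the membrane-bound member, had 2313, 5004 and 2931 counts in mutant replicates 1 to 3, against 3132, 4635 and 2062 counts in wild-type replicates 1 to 3. Its levels were 108, 262 and 153 CPM in the mutants and 160, 208 and 111 CPM in the wild types. Replicate 2 was the highest library of each genotype, and the highest was 2.42 times the lowest over all 6. The mean was 174 ± 79.0 CPM in the mutants and 159 ± 48.6 CPM in the wild types (SD, n = 3 each). The log2 fold change was 0.13 with an SE of 0.39, and it was -0.29 without mutant replicate 2 and -0.07 without wild-type replicate 3.

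Nptxr shares its locus with Npcd (ENSMUSG00000089837), a gene model on the same strand that joins the upstream gene Cbx6 to Nptxr. In GENCODE M21, 4 of the 5 exons of the Nptxr transcript overlap Npcd exons, and 890 of the 1453 exonic bases of Npcd (61.3%) are also Nptxr exon. Reads in those bases can be given to either row. Npcd had 45, 164 and 444 counts in the mutants, against 508, 276 and 452 counts in the wild types. It took 1.91%, 3.17% and 13.2% of the summed counts of Nptxr and Npcd in the mutants, and 14.0%, 5.62% and 18.0% in the wild types. The genotypes overlapped.

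With the rows summed, the locus gave 110, 270 and 176 CPM in the mutants and 185, 220 and 135 CPM in the wild types. The log2 fold change of the sum was 0.04, so moving Npcd reads to Nptxr left the genotypes overlapping and replicate 2 the highest of each. Cbx6, a Polycomb chromobox gene upstream, had 78.0 ± 12.9 CPM in the mutants and 81.0 ± 16.5 CPM in the wild types (SD, n = 3 each).

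**Figure D2:**
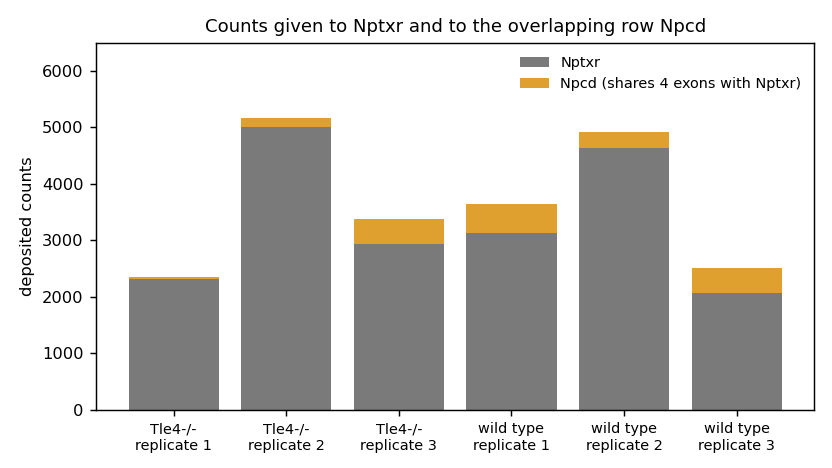
Deposited counts (vertical axis) of Nptxr (grey) and of the overlapping gene model Npcd (orange, stacked) in the 3 Tle4-/- and the 3 wild-type libraries. Npcd took 1.91% to 13.2% of the sum in the mutants and 5.62% to 18.0% in the wild types, and the summed counts were highest in replicate 2 of each genotype.

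The members also differed in how far libraries of 1 genotype lay apart. Nptx1 had a coefficient of variation (SD over mean) of 2.56% in the mutants and 9.39% in the wild types. Genes with a mean CPM within 2-fold of it had medians of 11.2% in the mutants and 12.4% in the wild types, and 4.24% and 34.3% of them varied less than Nptx1. Nptx2 varied by 31.8% in the mutants and 32.1% in the wild types, more than 93.1% and 90.2% of genes of like level. Nptxr varied by 45.3% in the mutants and 30.5% in the wild types, more than 99.3% and 97.4% of genes of like level. Counting error alone, taken as Poisson at the mean count, gives 5.99% and 4.03% for Nptx1, 5.97% and 5.68% for Nptx2, and 1.71% and 1.75% for Nptxr, in the mutants and the wild types in that order. The spread of Nptx1 in the mutants was thus below what counting alone gives. A small spread also lowers the edgeR adjusted p by which Nptx1 was chosen. Its low spread is therefore not independent of the choice and is a description only.

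Endothelial and meningeal markers, like Nptxr, were highest in replicate 2 of each genotype, though not in the same proportion. Endothelial markers summed to 160, 186 and 168 CPM in mutant replicates 1 to 3 and to 136, 221 and 138 CPM in wild-type replicates 1 to 3. Meningeal markers summed to 176, 371 and 212 CPM in the mutants and to 9.88, 449 and 160 CPM in the wild types. Microglia markers were also highest in replicate 2 of each genotype, at 25.7, 33.65 and 26.0 CPM in the mutants and 21.4, 46.9 and 24.45 CPM in the wild types. Interneuron markers, thalamus markers and those of corticothalamic and subplate neurons were highest in replicate 2 of the mutants but not of the wild types. Some other lists did not have that order in the mutants. Astrocyte markers summed to 506, 482 and 497 CPM in mutant replicates 1 to 3. Markers of the oligodendrocyte lineage summed to 316, 297 and 285 CPM, and those of cortical excitatory neurons to 2339, 2115 and 1768 CPM. These 3 lists were highest in mutant replicate 1, the mutant library with the least Nptxr. In wild-type replicates 1 to 3, astrocyte markers summed to 362, 582 and 392 CPM. Those of the oligodendrocyte lineage summed to 247, 278 and 249 CPM there. These lists were thus highest in wild-type replicate 2, as Nptxr was. Cortical excitatory neuron markers summed to 2109, 2015 and 2310 CPM in the wild types, highest in replicate 3. Wild-type replicate 1, with 9.88 CPM of meningeal markers, had 160 CPM of Nptxr. The part of these cell types in the spread of Nptxr was not tested.

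**Figure D3:**
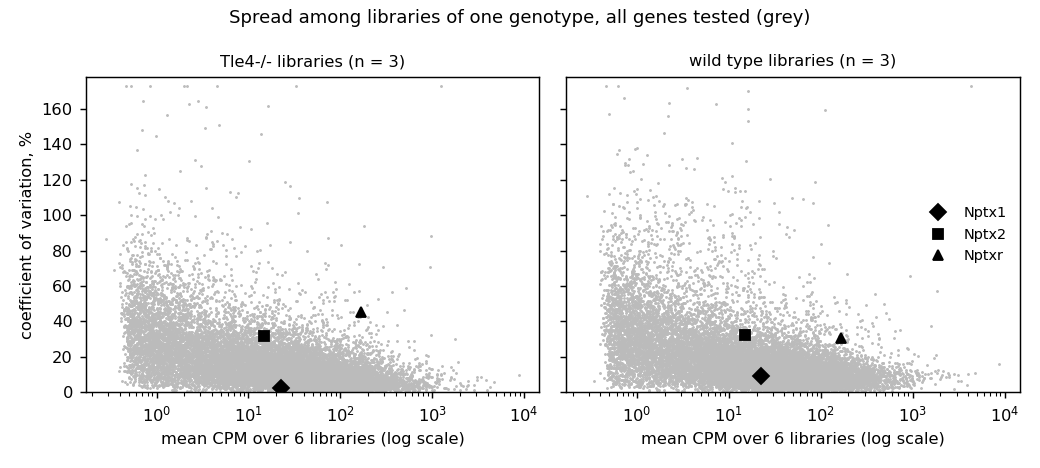
Coefficient of variation in percent among the 3 Tle4-/- libraries (left panel) and the 3 wild-type libraries (right panel) against mean CPM over 6 libraries (log axis), for all genes tested (grey) and the 3 members (black symbols). Nptxr lies above most genes of its level in each panel, at 45.3% and 30.5%, and Nptx1 lies low in the mutants, at 2.56%. Nptx1 was chosen by an edgeR adjusted p that a small spread lowers.

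Levels of different genes are compared here per length. The deposited FPKM (fragments per kilobase, scaled to depth) of Nptx1 and Nptx2 imply lengths of 5217 and 2536 bases, equal to their exonic bases in GENCODE M21. Those of Nptxr imply 10123 bases, 1.96 times its 5170 exonic bases, so its FPKM is lower by that factor than a value per exonic kilobase. Of 13764 genes with at least 20 counts in each library, 28.6% imply a length at least 1.5 times their exonic bases. CPM per exonic kilobase is therefore given beside FPKM.

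Per exonic kilobase, Nptxr was the most abundant member in every library, at 33.7 ± 15.3 in the mutants and 30.8 ± 9.40 in the wild types (CPM per kilobase, SD, n = 3 each). Nptx2 had 5.64 ± 1.80 in the mutants and 6.10 ± 1.96 in the wild types on the same scale. Nptx1 had 2.69 ± 0.0689 in the mutants and 5.88 ± 0.552 in the wild types. In the mutants the order was Nptxr, Nptx2, Nptx1 in each library. In the wild types Nptx1 and Nptx2 did not differ beyond their spread, and their order was not the same in all 3 libraries.

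The ratio of Nptx1 to Nptx2 was 0.737, 0.404 and 0.411 in the mutants and 0.734, 1.05 and 1.26 in the wild types, with either measure of length. The genotypes overlapped by a small margin, through mutant replicate 1, where Nptx2 was lowest, and wild-type replicate 1, where it was highest. Nptx1 made up 15.6%, 7.80% and 11.0% of the summed FPKM of the 3 members in the mutants, and 20.3%, 17.1% and 28.2% in the wild types. Per exonic kilobase the shares were 9.71%, 4.59% and 6.89% in the mutants and 13.5%, 10.4% and 19.2% in the wild types. On either scale each mutant lay below each wild type. The ratio and the shares have Nptx1, the gene that led to the choice, as numerator. They therefore restate its difference in part and are descriptions, not further support. The summed FPKM of all 3 members overlapped between the genotypes, at 16.8, 35.4 and 24.0 in the mutants and 29.7, 31.7 and 22.2 in the wild types.

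Genes with the most similar pattern were ranked by Pearson's r of log2 CPM with each member over the 6 libraries, among 13029 other named protein-coding genes with a mean of at least 1 CPM. Libraries share depth and genotype across genes, so r is a description only. Nearest to Nptx1 were Rab40c, a small GTPase (r = 0.991), Ube2q1, a ubiquitin-conjugating enzyme (0.991), and Drd2, a dopamine receptor (0.989). Log2 fold changes were -1.29 for Rab40c and -1.24 for Drd2, near that of Nptx1, and -0.11 for Ube2q1. Rab40c had 19.8, 23.0 and 21.6 CPM in the mutants and 49.7, 48.1 and 60.2 CPM in the wild types.

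Nearest to Nptx2 were Gp1ba, a platelet glycoprotein (r = 0.997), Auts2, a neurodevelopmental chromatin regulator (0.988), and Asic2, an acid-sensing ion channel (0.985). Nearest to Nptxr were Icam2, an endothelial adhesion molecule (0.993), Tcf19 (0.993), and Prss23, a serine protease (0.986). Neither the 3 genes nearest to Nptx2 nor the 3 nearest to Nptxr include another member. The log2 fold changes of these 6 genes ran from -0.14 for Gp1ba to 0.08 for Tcf19.

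The genes beside Nptx1 on chromosome 11 gave smaller values. The nearest tested genes on either side, Endov, 27282 bases away, and Rptor, 55152 bases away, had log2 fold changes of -0.16 and -0.05. Rptor encodes the mTOR-complex protein raptor. The next ones, Rnf213 and Chmp6, had 0.12 and 0.17, and none of the 4 passed the adjusted threshold by edgeR.

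The receptors on which pentraxins act were set beside the members. None of the AMPA receptor subunits, which form the channel, passed the adjusted threshold by edgeR, DESeq2 or limma-voom, and 0 of 4 passed an unadjusted p under 0.05 by edgeR. All 4 subunits had log2 fold changes below 0, as did 8352 of the 16274 genes tested. Their median was -0.17, against -0.01 over all genes tested. Gria2, the subunit that limits calcium entry, had 717, 712 and 1202 CPM in the mutants and 879, 1059 and 1217 CPM in the wild types (log2 fold change -0.26, SE 0.23). Gria4 had 53.5 ± 12.9 CPM in the mutants and 65.2 ± 8.92 CPM in the wild types (SD, n = 3 each), with a log2 fold change of -0.28 (SE 0.18). Gria1 and Gria3 had log2 fold changes of -0.07 each (SE 0.13 and 0.14). The genotypes overlapped for all 4 subunits.

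Of 18 auxiliary and biogenesis proteins of AMPA receptors, 0 passed the adjusted threshold by any of the 3 tools, and 1 had an unadjusted p under 0.05 by edgeR. This was Gsg1l, an auxiliary subunit of the claudin family, with 19.2, 24.6 and 21.8 CPM in the mutants and 38.2, 26.8 and 35.9 CPM in the wild types. Its genotypes did not overlap. The log2 fold change was -0.62 (SE 0.17), with an edgeR adjusted p of 0.833. Cpt1c, Shisa6 and Syndig1, which follow it in order of p, had log2 fold changes of 0.15, -0.11 and 0.16. The list's median was -0.03.

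Of 10 scaffold and trafficking proteins that hold AMPA receptors in place, 0 passed the adjusted threshold by any of the 3 tools and 0 an unadjusted p under 0.05 by edgeR. Grip2, a PDZ-domain scaffold, had 105 CPM in the mutants and 84.2 CPM in the wild types on average (log2 fold change 0.32, SE 0.18). Grasp, Nsf, which is the ATPase that takes SNARE complexes apart, and Dlg2 had -0.22, -0.08 and 0.06. The list's median was -0.03.

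Genes that act on or bind neuronal pentraxins also gave no call. Of 8, 0 passed the adjusted threshold by any of the 3 tools and 0 an unadjusted p under 0.05 by edgeR, with a median log2 fold change of -0.03. Adam17, the protease that cleaves Nptxr from the membrane, had 25.5 ± 1.61 CPM in the mutants and 22.2 ± 3.62 CPM in the wild types (SD, n = 3 each), a log2 fold change of 0.20. Gpc4, a glypican of astrocytes that prompts release of Nptx1 from neurons, had 17.8, 24.3 and 23.5 CPM in the mutants and 18.5, 17.7 and 17.2 CPM in the wild types (log2 fold change 0.30, SE 0.16). Gpc6, the related glypican, had 0.02. Ptprd, the receptor phosphatase through which Gpc4 acts on neurons, had -0.11, and Rcn2, a calcium-binding protein of the secretory pathway that binds Nptx1, had 0.03. The complement genes C1qa, C1qb and C1qc, whose product binds neuronal pentraxins, had -0.18, -0.09 and -0.20.

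**Figure D4:**
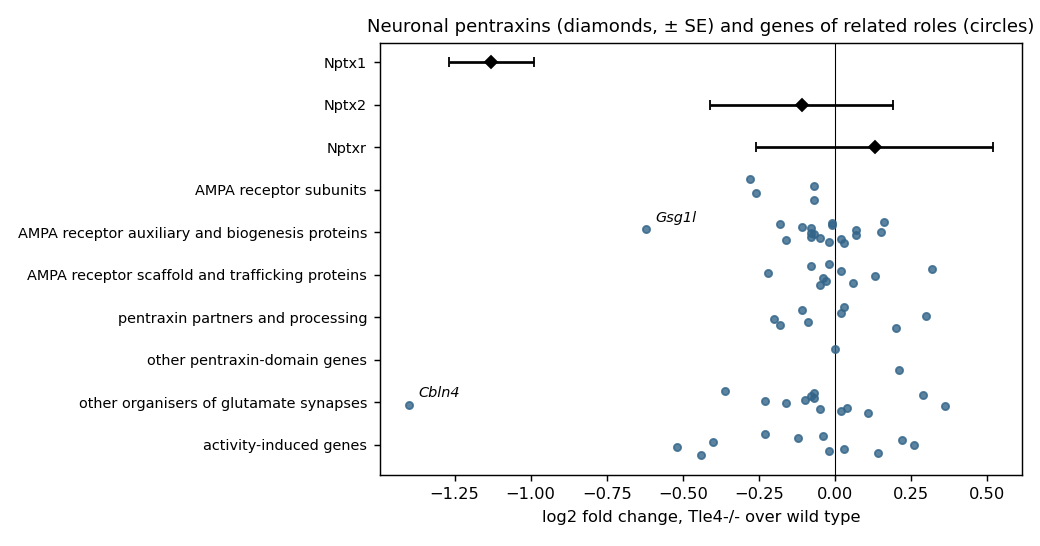
Log2 fold change, Tle4-/- over wild type (horizontal axis, 0 marked), of the 3 members (black diamonds, bars ± SE) and of the 67 tested genes of related roles (blue circles, 1 row per list). Nptx1 lies at -1.13, while all circles but Cbln4 lie between -0.62, the value of Gsg1l, and 0.36.

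Few other genes with a pentraxin domain could be tested. Of 5 listed, Ptx3, the long pentraxin of innate immunity, and Svep1, a large matrix protein, were tested. Ptx3 had 9.82, 8.69 and 8.50 CPM in the mutants and 5.24, 9.70 and 8.38 CPM in the wild types, and a log2 fold change of 0.21. Svep1 had 3.13, 4.61 and 4.28 CPM in the mutants and 0.662, 8.66 and 2.63 CPM in the wild types, and its lowest and highest libraries were those with the least and the most meningeal marker signal. Neither passed the adjusted threshold by edgeR, DESeq2 or limma-voom, nor an unadjusted p under 0.05 by edgeR. Ptx4 did not pass the filter on low counts, and Crp and Apcs were not found by name in the deposited table, so they have no values here.

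Of 14 tested genes for other secreted or adhesive organisers of glutamate synapses, 0 passed the adjusted threshold by any of the 3 tools, and 1 had an unadjusted p under 0.05 by edgeR. Cbln4, a secreted cerebellin, had 0.982, 1.41 and 1.36 CPM in the mutants and 3.16, 5.03 and 1.67 CPM in the wild types and a log2 fold change of -1.40 (SE 0.41), with an edgeR adjusted p of 1. The genotypes did not overlap, at a low level. Sparcl1, the astrocyte protein hevin, had a log2 fold change of 0.29, Lrrtm1 of -0.23 and Thbs2, a thrombospondin, of -0.36. The list's median was -0.07.

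Of 11 activity-induced genes, the class to which Nptx2 belongs, 0 passed the adjusted threshold by any of the 3 tools and 0 an unadjusted p under 0.05 by edgeR. The median log2 fold change was -0.04. Arc, an immediate early gene of synapses, had 2.71, 2.51 and 2.03 CPM in the mutants and 2.09, 4.44 and 3.28 CPM in the wild types. Homer1, Egr4 and Nr4a1 had log2 fold changes of 0.22, -0.52 and -0.23, and Nr4a1 was the gene of this list whose genotypes did not overlap. In all 67 tested genes of these lists, 0 were called by edgeR, DESeq2 or limma-voom, 2 had an unadjusted p under 0.05 by edgeR, and 3 had genotypes that did not overlap. Over all genes tested, 0.111% were called by edgeR, 0.356% by DESeq2 and 0.0799% by limma-voom, 3.45% had an unadjusted p under 0.05, and 7.93% did not overlap.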

How the data were processed

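The authors deposited 1 table for the series. Per the file headers it holds whole-number counts and FPKM per gene and library, and the authors' own p-value and its adjusted form, used here only where the authors' deposited table is named. Per the submitters' processing notes, the builds were GRCm38.p4 and mm10, and the tools include edgeR, StringTie and HISAT2 2.0.4. What made the counts, the annotation release, the strand setting and the length behind FPKM are not stated there. In 25 rows the symbol had become a date and was restored from the gene ID.

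Deposited counts were fitted with edgeR 4.0.16 in R 4.3.3 (filterByExpr, TMM factors, robust quasi-likelihood F test, 2-sided), with Benjamini-Hochberg adjustment over 16274 genes and a threshold of 0.05. The SE was taken as the size of the log2 fold change divided by the root of F. CPM used TMM-scaled library sizes, and log2 CPM a prior count of 2. These steps were first checked on simulated counts. Alternatives used DESeq2 1.42.0, limma-voom 3.58.1, other filters and scaling, FPKM with pseudocounts of 0.1 and 1, a replicate block and each library left out. Sequences and exons came from GENCODE M21 on GRCm38, by transcript. Coding sequences were aligned pair by pair without end-gap costs.

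The members and the lists of related genes and cell markers were chosen with earlier results of these data known. The text names every member, AMPA receptor subunit and pentraxin partner, up to 4 genes of smallest p from each other list, and the 3 nearest genes by r. Npcd, Cbx6, Xist, Ddx3y and the neighbours of Nptx1 were chosen after their values were seen.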

Additional observations from a re-analysis of the deposited data

How the results depend on the processing

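The log2 fold change of Nptx1 stayed within the spread between replicates in 14 of 15 alternatives. It was -0.91 as a ratio of mean FPKM with a pseudocount of 1, which shrinks differences at this level by construction. Leaving out 1 library gave -1.20 to -1.08 for Nptx1, -0.28 to 0.18 for Nptx2 and -0.29 to 0.38 for Nptxr, and -12.8 to -7.20 percentage points (mutant minus wild type) for the share of Nptx1 in summed FPKM. Genes called over the whole table numbered 18. They were 58 by the DESeq2 Wald test, 9 with a replicate block and 8 to 19 with 1 library left out, the lowest without mutant replicate 3. Of the genes in related lists 0 were called in every alternative run.

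Replicate numbers were not said to pair animals. Deviations from the genotype means correlated at -0.063, 0.10 and -0.018 for replicates 1, 2 and 3, and not every library correlated best with its own number. With the replicate block the log2 fold changes were -1.12, -0.11 and 0.08 for Nptx1, Nptx2 and Nptxr, and the edgeR adjusted p of Nptx1 was 0.122. After seeing the data, wild-type replicate 1 and mutant replicate 3, which stand apart in meningeal or choroid plexus markers, were left out together. This gave -1.09, 0.07 and 0.21 for Nptx1, Nptx2 and Nptxr, and an edgeR adjusted p of 0.271 for Nptx1. Adding Npcd counts to Nptxr and using exonic length were also chosen after seeing the data. Counting error gave a coefficient of variation of 5.97% in the mutants and 5.68% in the wild types for Nptx2, and of 1.71% and 1.75% for Nptxr, each below the spread between libraries of that genotype.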
